A study of Mus musculus with 2 samples.

Results

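The miR-17-92 cluster is a set of 6 microRNA (miRNA) genes that are processed from 1 primary transcript, the long non-coding RNA Mir17hg. The members were taken as the miRNA genes of the deposited count tables that lie on chromosome 14, plus strand, inside Mir17hg on mm10. This gave Mir17, Mir18, Mir19a, Mir20a, Mir19b-1 and Mir92-1, 6 of the 1973 genes in the tables. MiRNAs are short RNAs that pair with messenger RNAs and repress them, and here they were counted by sequencing size-selected small RNA from healthy mouse neural tube at embryonic day 13.5. The 2 libraries, numbered biological replicates 1 and 2, came from B6NCrl embryos of both sexes whose tissue was pooled. They have separate tissue entries and share 1 donor entry, so whether their embryos came from separate litters is not known. There was no second condition. The data therefore address how far the products of 1 transcript differ among themselves, how they compare with their paralogs, and how far the libraries differ.

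Mir17hg is best known as an oncogenic locus driven by Myc and E2F factors, and its miRNAs promote proliferation and survival. Drosha cuts each hairpin out of the transcript and Dicer trims it to a duplex, of which 1 strand, the guide arm, is usually kept. A guide finds its targets mainly through the seed, bases 2 to 8 from its 5′ end. In the developing nervous system of the mouse the cluster supports expansion of neural progenitors and survival of spinal motor neurons.

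The guide arms of the 6 members hold 4 different seeds, and the results below follow these groups. They are printed 5′ to 3′ with the seed in capitals, as given by RefSeq on GRCm38.p6. All 6 members were matched in that table by symbol.
miR-17-5p: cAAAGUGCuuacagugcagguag
miR-20a-5p: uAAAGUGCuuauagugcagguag
miR-18a-5p: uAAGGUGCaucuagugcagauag
miR-19a-3p: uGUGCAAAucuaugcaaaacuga
miR-19b-3p: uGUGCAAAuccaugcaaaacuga
miR-92a-3p: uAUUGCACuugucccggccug
The guides of Mir17 and Mir20a share a seed and differ at 2 positions, C1U and C12U, counted from the 5′ end with the base of miR-17-5p first. Those of Mir19a and Mir19b-1 differ at 1 position, U11C, with the base of miR-19a-3p first. Both miR-19 guides end in A, and the other 4 end in G. The deposited counts are per gene and join both arms of a hairpin, so the arms could not be told apart. This matters for Mir17, whose other arm, miR-17-3p, is known to repress the motor neuron progenitor factor Olig2 in mouse.

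In the annotation GENCODE M21, made on GRCm38 (mm10), Mir17hg (ENSMUSG00000089726) spans 115042879 to 115046727 on the plus strand of chromosome 14. All 6 hairpins lie in exon 2 of its transcript Mir17hg-201, within 836 bases. Mir17 lies first, at 115043671 to 115043754, followed by Mir18 at 115043851 to 115043946 and Mir19a at 115044000 to 115044081. Mir20a comes next at 115044157 to 115044263, then Mir19b-1 at 115044305 to 115044391 and Mir92-1 at 115044427 to 115044506. The gaps between neighbouring hairpins ran from 35 to 96 bases. Hairpin lengths ran from 80 bases in Mir92-1 to 107 in Mir20a, and their GC content from 43.7% in Mir19b-1 to 47.5% in Mir92-1. Predicted minimum free energies per base were lowest, that is most stable, in Mir19a (-0.47 kcal/mol per base) and Mir17 (-0.44), and highest in Mir18 (-0.30). The most and the least abundant members, described below, were thus close to each other on this scale, since Mir19b-1 stood at -0.43 kcal/mol per base.

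Same-strand counts on all miRNA genes came to 5738209 in replicate 2 and 7019469 in replicate 1, and CPM below is a gene's count scaled to 1e6 of these. Of all reads, 31.0% in replicate 2 and 28.5% in replicate 1 were classed as mapping to several places. They were taken to be missing from the gene counts, so CPM, shares and ranks below refer to the counted reads only. The libraries differed beyond counting error (chi-square over degrees of freedom 201, from the 371 genes that reached 10 counts in both) and were kept as 2 samples. Of the neural marker list, 8 of the 11 genes analysed reached 10 counts in both libraries, and the list summed to 9242 CPM in replicate 2 and 9059 CPM in replicate 1. The endothelial marker Mir126a was at 16019 and 17134 CPM in the same order. The 6 mesenchymal markers summed to 10448 and 8467 CPM, so markers of other cell types were counted as well. The neural list includes several genes each of miR-9 and miR-124a, whose reads may fit several genes and so be missing. The lists also differ in their number of genes, so their sums do not show which cell type gave more reads. The skeletal muscle list summed to 378 CPM in replicate 2 and 119 CPM in replicate 1. Of its 3 genes analysed only 1, Mir206, reached 10 counts in both, with a log2 ratio of replicate 2 over replicate 1 of 1.67. The leukocyte list summed to 147 and 183 CPM in replicates 2 and 1. The red cell list summed to 48.3 and 76.1 CPM, with log2 ratios of -1.14 for Mir451a, -0.22 for Mir144 and -0.056 for Mir486. The hepatic marker Mir122 stood at 30.7 and 118 CPM. These sums thus differed between the libraries, though not evenly over the genes of a list. The part of these cell types in the counts of the cluster was not tested. In bulk tissue fewer cells of a type and less RNA per cell cannot be told apart.

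The 6 genes together held 3.33% of all same-strand counts in replicate 2 (Wilson 95% interval 3.32% to 3.35%) and 3.01% in replicate 1 (3.002% to 3.027%), a mean of 3.17% ± 0.23 (SD, n = 2). The intervals cover counting error only, because without molecular identifiers several reads can stem from 1 molecule. They did not overlap, so the share differed between the libraries by more than counting error. All 6 genes reached 10 counts in both libraries, and all had 0 opposite-strand counts. Their levels were far from equal, ranging over 3 orders of magnitude from Mir17 to Mir19b-1.

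The miR-17 seed group, Mir17 and Mir20a, made up most of the cluster. Its guides are known to repress the cell cycle inhibitor Cdkn1a and the pro-apoptotic factor Bim. Mir17 had 112594 counts or 19622 CPM in replicate 2, and 131168 counts or 18686 CPM in replicate 1. It averaged 19154 ± 661 CPM (SD, n = 2) and stood at rank 8 of all genes in both libraries, between Mirlet7i at 25538 ± 1633 CPM and Mir130a at 16872 ± 1400 CPM. Mir20a had 52184 counts or 9094 CPM in replicate 2, and 49854 counts or 7102 CPM in replicate 1. Its mean of 8098 ± 1408 CPM put it at rank 22, next to Mir615 (8833 ± 873 CPM) and Mir322 (7497 ± 1583 CPM), neither of which differed from it beyond the SDs. Mir17 was above Mir20a in both libraries, 2.16-fold in replicate 2 and 2.63-fold in replicate 1, a mean log2 ratio of 1.25 ± 0.20. Together they held 86.1% of the cluster's counts in replicate 2 and 85.5% in replicate 1.

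Mir18 came next. Its guide, known to dampen TGF-β signalling, has a seed that differs from the miR-17 seed by 1 base. The gene had 18927 counts or 3298 CPM in replicate 2, and 21129 counts or 3010 CPM in replicate 1. At 3154 ± 204 CPM it ranked 47, and its neighbours Mir135b (3172 ± 76.6 CPM) and Mir296 (3043 ± 138 CPM) lay within its SD. It held 9.89% of the cluster's counts in replicate 2 and 9.98% in replicate 1, with overlapping Wilson intervals of 9.76% to 10.03% and 9.86% to 10.11%. Within the cluster, Mir20a exceeded Mir18 by a log2 ratio of 1.35 ± 0.16, or 2.55-fold. Mir17 exceeded it 6.08-fold (2.60 ± 0.043).

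Mir92-1, the last hairpin of the transcript, was the fourth most abundant. Its guide miR-92a is known to restrain blood vessel growth, in part through the integrin subunit Itga5. There were 7291 counts or 1271 CPM in replicate 2, and 9130 counts or 1301 CPM in replicate 1. The mean of 1286 ± 21.3 CPM gave rank 74, between Mir301 at 1287 ± 30.2 CPM and Mir16-1 at 1258 ± 144 CPM. Mir18 exceeded Mir92-1 by a log2 ratio of 1.29 ± 0.12, or 2.45-fold. The share of the cluster held by Mir92-1 was 3.81% in replicate 2 (3.73% to 3.90%) and 4.31% in replicate 1 (4.23% to 4.40%).

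Both miR-19 genes were the lowest of the cluster. In mouse lymphoma models the miR-19 guides account for much of the oncogenic activity of the transcript. Mir19a had 265 counts or 46.2 CPM in replicate 2, and 278 counts or 39.6 CPM in replicate 1. Mir19b-1 had 44 counts or 7.67 CPM in replicate 2, and 50 counts or 7.12 CPM in replicate 1. They ranked 231 and 309, at means of 42.9 ± 4.65 and 7.40 ± 0.39 CPM. Although the hairpin of Mir19a lies between those of Mir18 and Mir20a, its count was lower than that of Mir18 by a factor of 73.7 and lower than that of Mir20a by a factor of 188. Mir19a was above Mir19b-1 by a log2 ratio of 2.53 ± 0.082, or 5.79-fold, and Mir92-1 was above Mir19a by 4.91 ± 0.18, or 30.1-fold. The miR-19 group held 0.162% of the cluster's counts in replicate 2 and 0.155% in replicate 1.

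**Figure D1:**
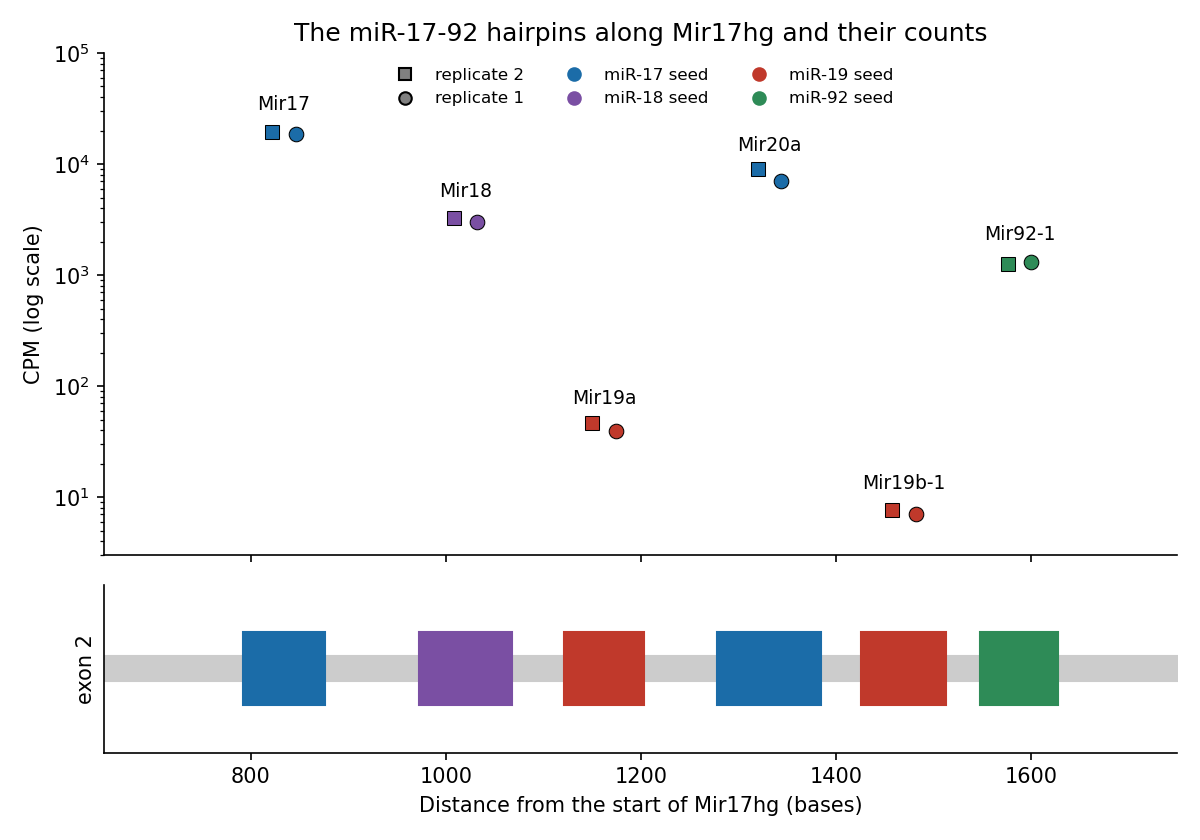
CPM of each miR-17-92 member (log scale, squares replicate 2, circles replicate 1) above the position of its hairpin in exon 2 of Mir17hg, in bases from the start of the host gene. Colours mark the seed group. Mir17 lies highest at 19622 and 18686 CPM, and both miR-19 hairpins lie under 50 CPM while the 4 other members lie at 1271 CPM or more.

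The order Mir17, Mir20a, Mir18, Mir92-1, Mir19a, Mir19b-1 was the same in both libraries. All 15 pairs of members kept the same sign in both, had a mean log2 ratio larger than its SD, and had CPM ranges that did not overlap. Every neighbouring pair in this order therefore differed beyond the spread of the libraries, but an exact two-sided sign-flip test over 2 libraries cannot give a p below 0.5, and none was computed. The order was not that of the hairpins along the transcript. Since a miRNA read covers an arm and not the whole hairpin, CPM was not divided by length, and dividing by hairpin length left all 15 pairs in the same order in both libraries. By seed group, miR-17 exceeded miR-18 by a log2 ratio of 3.11 ± 0.016 (8.64-fold), miR-92 by 4.40 ± 0.13 (21.2-fold) and miR-19 by 9.08 ± 0.035 (542-fold). The miR-18 group exceeded the miR-92 group 2.45-fold and the miR-19 group 62.8-fold, while miR-92 exceeded miR-19 25.6-fold. These ratios compare reads, and ligation and amplification during library making can differ between small RNAs, so they are not ratios of molecules. Mir19b-1 and Mir92-1 have guides copied in other genes, described below, and their counts may lack reads of these guides. Ratios with the miR-19 and miR-92 groups may therefore not be ratios of guides with these seeds.

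Reads that fit several places form a class of their own in the tables and were taken to be missing from the gene counts, which was not tested. The guides of 2 members have an exact copy in another miRNA gene. The sequence of miR-19b-3p is found in Mir19b-1 and Mir19b-2, and that of miR-92a-3p in Mir92-1 and Mir92-2, both copies lying in the paralogous cluster on the X chromosome. The hairpins are printed here because the capitals, the longest run they share, show which reads would fit both. They are RefSeq sequences on GRCm38.p6, 5′ to 3′, for Mir19b-1 at chr14:115044305-115044391 (plus strand), Mir19b-2 at chrX:52741983-52742066 (minus strand), Mir92-1 at chr14:115044427-115044506 (plus strand) and Mir92-2 at chrX:52741838-52741928 (minus strand).
Mir19b-1: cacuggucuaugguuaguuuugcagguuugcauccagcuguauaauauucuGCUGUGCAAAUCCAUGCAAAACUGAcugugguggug
Mir19b-2: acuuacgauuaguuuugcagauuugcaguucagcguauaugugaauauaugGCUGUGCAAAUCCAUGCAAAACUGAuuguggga
Mir92-1: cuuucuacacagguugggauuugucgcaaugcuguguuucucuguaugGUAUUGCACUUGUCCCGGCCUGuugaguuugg
Mir92-2: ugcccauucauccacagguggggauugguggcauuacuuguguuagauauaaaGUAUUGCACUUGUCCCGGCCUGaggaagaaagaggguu
The shared run is 25 bases in the miR-19b pair and 22 in the miR-92a pair, and it contains the whole guide of 23 and 21 bases. If such reads are in no gene's count, the counts of Mir19b-1 and Mir92-1 are too low by an amount that was not measured. The reads left would then come from outside the shared run, as from the other arm, or extend past it, which was not tested. The other 4 members had no exact copy of any arm in another annotated miRNA gene of M21, and their longest runs shared with another miRNA hairpin were 13 bases for Mir17 and Mir19a and 17 for Mir18 and Mir20a. Among these 4 genes alone, the highest, Mir17, exceeded the lowest, Mir19a, 448-fold, a log2 ratio of 8.81 ± 0.11. Copies outside annotated miRNA genes were not searched.

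The members were compared with 10 paralogs that share a seed with them. These lie in the miR-106b-25 cluster on chromosome 5, the miR-106a-363 cluster on the X chromosome and Mir92b on chromosome 3. Other miRNA genes with these seeds were not searched, so the 10 need not be all genes with a member's seed. The miR-106b-25 cluster lies in the replication factor gene Mcm7, and in mice its loss worsens the phenotype of miR-17-92 mutants. The guides of the paralogs that differ from those of the members are printed 5′ to 3′ with the seed in capitals, as given by RefSeq on GRCm38.p6, to show how close they are.
miR-106b-5p: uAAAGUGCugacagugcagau
miR-93-5p: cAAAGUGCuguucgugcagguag
miR-106a-5p: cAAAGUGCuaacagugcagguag
miR-20b-5p: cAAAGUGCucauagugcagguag
miR-18b-5p: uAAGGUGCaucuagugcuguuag
miR-25-3p: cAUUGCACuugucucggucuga
miR-363-3p: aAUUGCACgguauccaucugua
miR-92b-3p: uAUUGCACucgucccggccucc
The guide of Mir106a differs from that of Mir17 at 1 position, U10A, and that of Mir20b from that of Mir20a at 2, U1C and U10C, with the member's base first. Reads with an error at such a position could be counted on the other gene, so the split between near-identical guides is uncertain.

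The cluster held more counts than these 10 paralogs together, by 1.64-fold (log2 ratio 0.71 ± 0.012). It stood at 3.33% and 3.01% of all counts in replicates 2 and 1, against 2.05% and 1.83% for the 10 paralogs. Against miR-106b-25 it was 2.10-fold higher, and against miR-106a-363 21.1-fold higher. Of 15 pairs of a member and a paralog with the same seed, the member was higher in 13 beyond the spread of the libraries, lower in 1, and not separated in 1. The pair not separated was Mir20a at 9094 and 7102 CPM in replicates 2 and 1, and Mir93 at 9895 and 8693 CPM, whose ranges overlapped although Mir20a was below Mir93 in both libraries (log2 ratio -0.21 ± 0.12). The pair with the member lower was Mir92-1 at 1271 and 1301 CPM against Mir92b at 2528 and 2879 CPM, a log2 ratio of -1.07 ± 0.11. The part of copied guides in this difference was not tested.

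Among the members and these 10 paralogs, the part of a seed's counts held by the members differed between the seed groups. Other miRNA genes with these seeds were not searched, and counts on any such gene would lower the parts given here. Of the counts on members and listed paralogs, the members held 98.5% for the miR-18 seed in both replicates. For the miR-19 seed they held 95.4% and 94.3% in replicates 2 and 1. They held 62.7% and 63.9% for the miR-17 seed, where Mir93 and Mir106b held most of the rest. For the miR-92 seed the members' part was 27.7% in replicate 2 (Wilson 95% interval 27.2% to 28.3%) and 26.3% in replicate 1 (25.9% to 26.8%), the lowest of the 4. For the miR-19 and miR-92 seeds, reads of the copied guides may be missing on both sides of these shares. The sides are not alike for the miR-92 seed, where the only member, Mir92-1, has a copied guide. Among its paralogs only Mir92-2 shares that guide, at 472 and 588 counts in replicates 2 and 1. Mir92b, with a different guide, had 14509 and 20210. The members' part for this seed, and its place as the lowest, may therefore be too low, which was not tested.

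**Figure D2:**
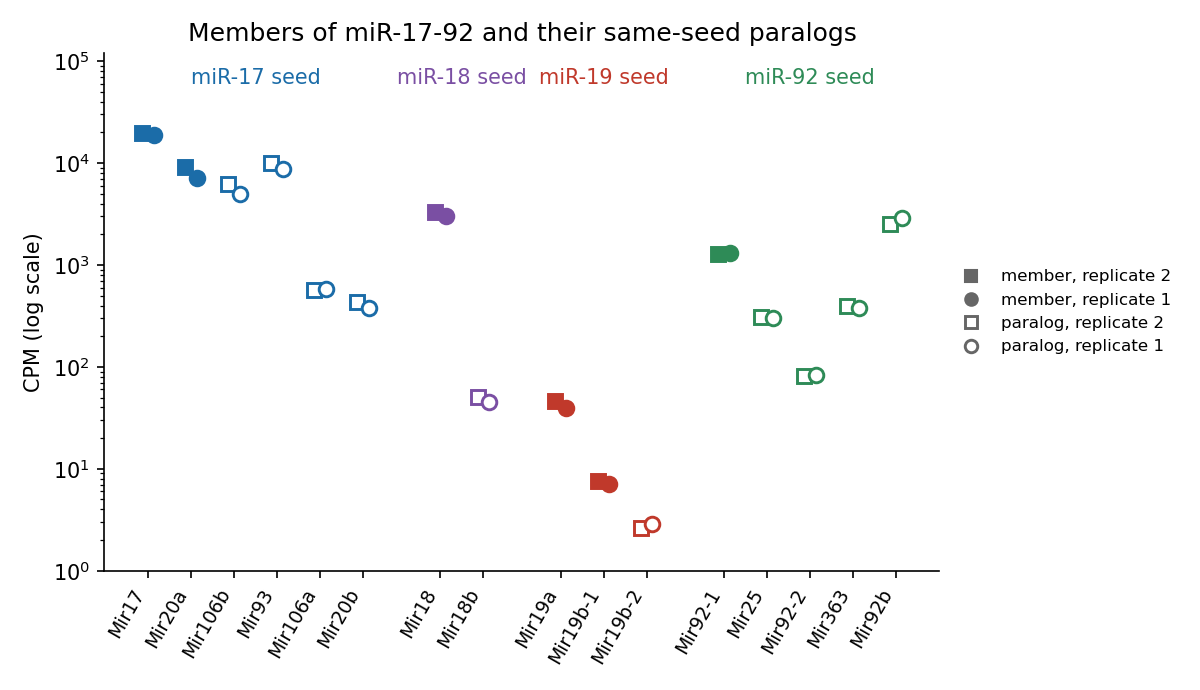
CPM (log scale) of the 6 members (filled) and 10 paralogs (open) by seed group, squares for replicate 2 and circles for replicate 1. Members exceed their paralogs in the miR-18 and miR-19 groups, Mir93 lies beside Mir20a, and Mir92b at 2528 and 2879 CPM lies above Mir92-1 at 1271 and 1301 CPM.

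The miR-106a-363 cluster has a hairpin of the same kind as each member except Mir19a, in the same order along its transcript, which allowed hairpins of the same kind to be compared. Mir17 exceeded Mir106a 33.1-fold, Mir18 exceeded Mir18b 65.2-fold, and Mir20a exceeded Mir20b 19.8-fold. For the hairpins with a copied guide, Mir92-1 exceeded Mir92-2 15.5-fold and Mir19b-1 exceeded Mir19b-2 2.71-fold, the last from 44 and 50 counts in replicates 2 and 1, against 15 and 20. In this paralogous cluster too the miR-19 hairpin was the lowest, with Mir19b-2 at 2.61 CPM in replicate 2 and 2.85 CPM in replicate 1. Its guide is the one copied in Mir19b-1, so its count may be too low, and the part of this in its place was not tested. The first hairpin, Mir106a, was the highest at 574 and 584 CPM in the same order.

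The spread within the cluster was large beside that of other miRNA clusters, though not the largest. Clusters were taken as groups of at least 3 miRNA genes on 1 strand, each reaching 10 counts in both libraries and lying less than 10 kb from the next, which gave 15. The difference between the highest and the lowest gene was 11.34 ± 0.025 log2 units in miR-17-92, or 2591-fold, and its median over the other 14 clusters was 6.21. Clusters with more genes can differ more, and over the 6 other clusters of 4 to 9 genes the median was 7.80. The lowest gene, Mir19b-1, is 1 of the genes with a copied guide. If its reads were lost, the difference is too large by an amount that was not measured. The same holds for the cluster of Mir363 to Mir106a, whose lowest gene is Mir19b-2. Copied guides were not searched in the other clusters, so the median and the rank may be affected by them as well. Only the cluster of Mir450b to Mir322 on the X chromosome had a larger difference, at 11.67, and the cluster of Mir292 to Mir294 had the smallest, at 1.34. The rank depended on the settings. In replicate 1 alone, and with gaps under 2 kb, miR-17-92 was first, and with gaps under 50 kb it was second. With at least 1 count in each library it was sixth of 17 clusters, and with at least 100 it lost Mir19b-1, had a difference of 8.81 and stayed second, of 11.

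**Figure D3:**
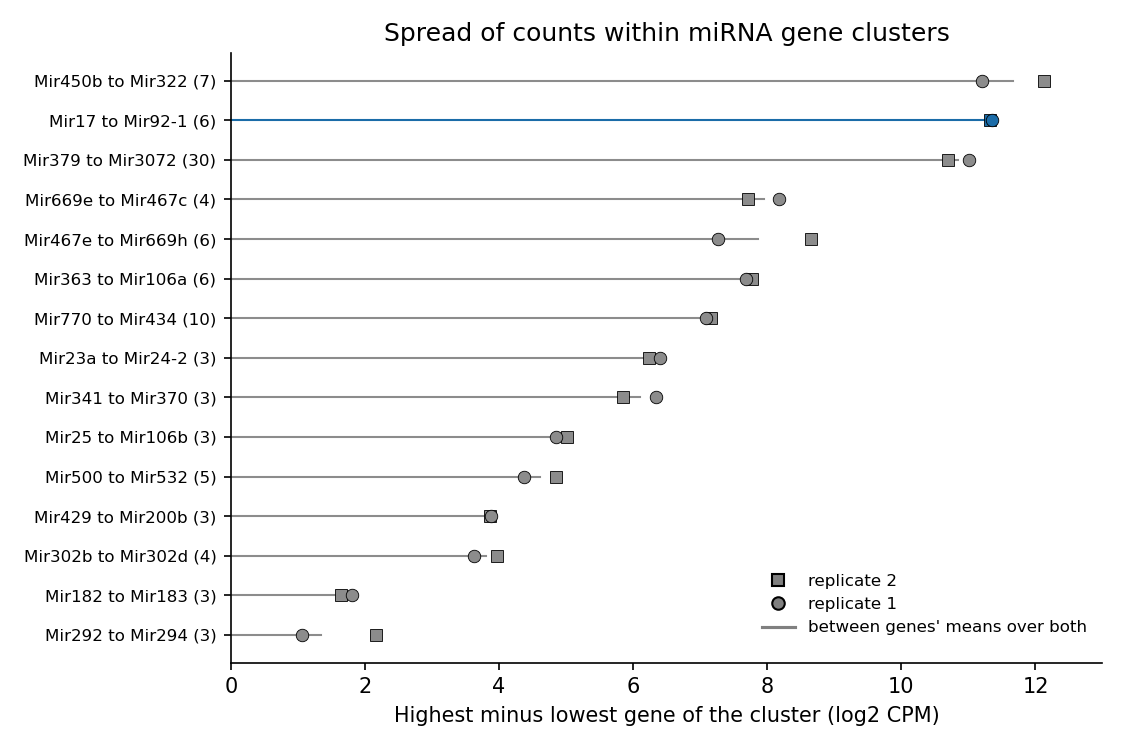
Difference in log2 CPM between the highest and the lowest gene of each of 15 miRNA gene clusters, named by the first and last gene with the number of genes in parentheses. Squares are replicate 2, circles replicate 1, and lines end at the difference between the genes' means over both libraries. The miR-17-92 cluster (blue) reaches 11.34, second after the cluster of Mir450b to Mir322.

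Between the libraries the members differed little. Differences are log2 CPM ratios of replicate 2 over replicate 1 with a pseudocount of 0.5, each with an exact 95% counting interval. There is 1 library on each side, so they carry no test. Mir20a had the highest, at 0.36 (0.34 to 0.37), and Mir92-1 the lowest, at -0.034 (-0.078 to 0.011). Mir17 stood at 0.070 (0.059 to 0.082) and Mir18 at 0.13 (0.10 to 0.16). The shallow genes were compatible with no difference by counting error, Mir19a at 0.22 (-0.027 to 0.47) and Mir19b-1 at 0.11 (-0.51 to 0.72).

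Of the 6 members, 5 had at least 100 counts summed over the libraries, and 0 of these 5 differed by 0.5 or more, where 8.5% of the 306 genes tested did. All 6 members reached 10 counts in both libraries, and 0 of the 6 reached 0.5, against 13.2% of the 371 genes with that depth. With 5 or 6 members, a count of 0 is close to what such percentages give for genes in general. The members' median was 0.13 over 5 genes, beside 0.039 over all 306. The level was higher in replicate 2 for 4 of the 5, where 55.9% of all genes were, and for 5 of the 6 that reached 10 counts in both libraries, where 52.6% were. Differences among the members ran over a range of 0.39, and the median range in the other 14 clusters was 0.54, with 4 of them below that of miR-17-92.

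The make-up of the cluster differed between the libraries in Mir17, Mir20a and Mir92-1. Mir17 held 58.9% of the cluster's counts in replicate 2 (Wilson 95% interval 58.6% to 59.1%) and 62.0% in replicate 1 (61.8% to 62.2%). Mir20a held 27.3% in replicate 2 (27.1% to 27.5%) and 23.6% in replicate 1 (23.4% to 23.7%). Neither pair of intervals overlapped, and nor did those of Mir92-1 given above, so these 3 shares differed beyond counting error. The shares of Mir18, Mir19a and Mir19b-1 had overlapping intervals. Among the paralogs with the miR-17 seed, Mir106b stood at a log2 difference of 0.33 (0.31 to 0.35), Mir93 at 0.19 (0.17 to 0.20), Mir20b at 0.19 (0.11 to 0.27) and Mir106a at -0.024 (-0.091 to 0.043). Of the 10 paralogs compared, those with the miR-92 seed lay between -0.19 for Mir92b and 0.067 for Mir363. None of the 10 paralogs reached a difference of 0.5 in either direction.

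**Figure D4:**
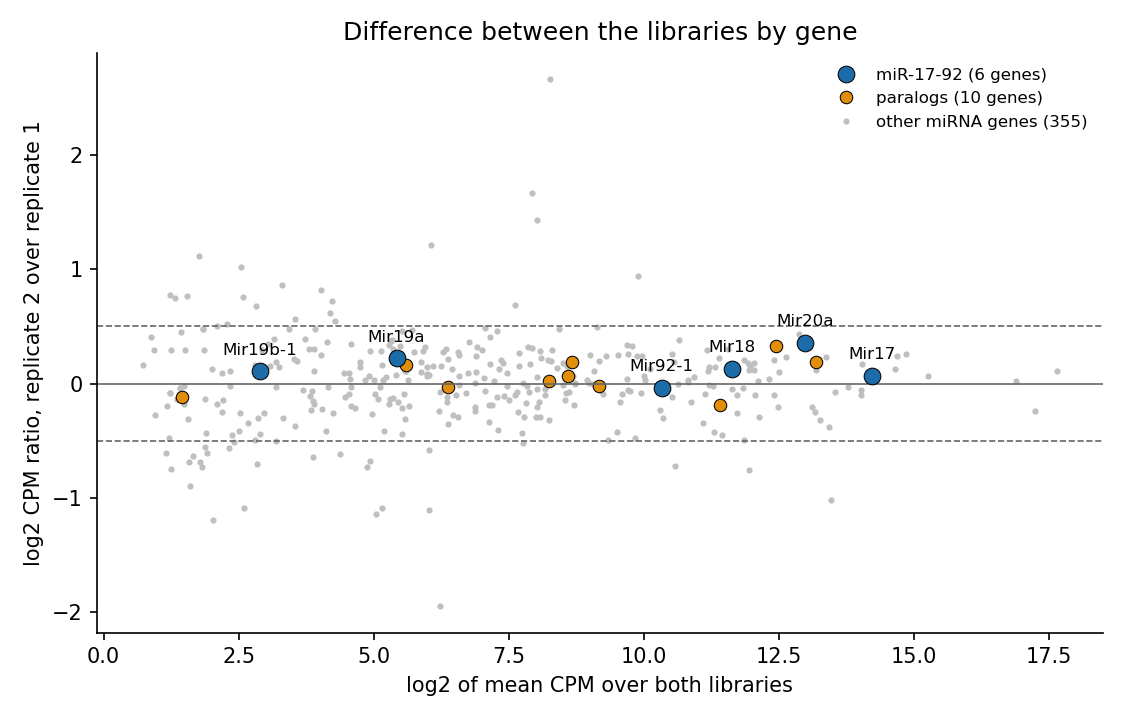
Log2 CPM ratio of replicate 2 over replicate 1 against the log2 of the mean CPM, for the 371 miRNA genes that reached 10 counts in both libraries. Blue points are the 6 members, orange points the 10 paralogs, grey points the other genes, and dashed lines mark 0.5 in either direction. All 6 members lie between the dashed lines, from -0.034 for Mir92-1 to 0.36 for Mir20a.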

How the data were processed

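Small RNA libraries were made from total RNA of neural tube at embryonic day 13.5. The authors deposited raw counts for each miRNA gene, made on mm10 and annotation M4 per the sources used here. These sources do not name the aligner or the counter. Each table has 3 count columns and 4 lines for reads outside genes, which were left out of totals. From the values, the second count column was taken as the same-strand count, and multimapping reads were taken to be in no gene.

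Names and positions came from GENCODE M21, matched by identifier without version for 1894 of 1973 genes. The other genes held 8 counts. CPM, ratios and shares were computed from same-strand totals with Python 3.11.15 and scipy 1.17.1. Hairpins were folded with ViennaRNA 2.7.2. Alternative scalings used edgeR 4.0.16 and DESeq2 1.42.0 in R 4.3.3. A pair of genes was said to differ beyond the spread where both libraries gave 1 sign, the mean log2 ratio exceeded its SD, and CPM ranges did not overlap. Named genes were all members, the 10 paralogs, the genes next to each member in mean CPM, and the clusters of largest and smallest spread. The difference and interval calculations were tested on simulated data. The members and lists were chosen with earlier results of these data known. Other alternatives were the unstranded column, other count minimums, pseudocounts and gaps, and each replicate left out.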

Additional observations from a re-analysis of the deposited data

Results flagged for a closer look

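Reads mapping to several places form a class of their own in the tables, outside the gene rows that all comparisons use. There were 3310889 of them in replicate 2 and 3921182 in replicate 1. How many belong to miR-19b-3p or miR-92a-3p, the guides of Mir19b-1 and Mir92-1 that have an exact copy in another miRNA gene, was not measured.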

How the results depend on the processing

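None of the alternatives run changed the direction of a value. With Mir10a left out of the total, the share of the cluster was 3.99%, and all 6 member levels moved up by more than the SD, as follows from the smaller total. With the most abundant gene standing for each seed group, the log2 ratios were 2.60 for miR-17 over miR-18, 3.90 for miR-17 over miR-92, 8.81 for miR-17 over miR-19, 6.20 for miR-18 over miR-19 and 4.91 for miR-92 over miR-19. The percentage of all genes that differed by 0.5 or more between the libraries was 13.2% with at least 10 counts in each library, 22.2% with at least 10 counts summed and 43.4% with no filter. The spread of the cluster was 8.81 with at least 100 counts in each library. Under other scalings, 7 differences of single members moved by more than their counting error, by at most 0.033 log2 units. With 2 libraries, leaving out 1 always gives a value within the SD of both, so it is no test of stability. The comparison of pairs after division by hairpin length was chosen after seeing the data. Depth limits Mir19b-1 most, at 44 and 50 counts in replicates 2 and 1. No paired analysis was possible because there is 1 group.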
